A study of Homo sapiens with 6 samples.

Results

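Expression of 10 genes was compared between parental LNCaP cells (n = 3) and LNCaP-enzaR cells (n = 3). The genes were chosen for known roles in limiting ErbB receptor signalling or releasing ErbB ligands, or as relatives of such genes. ERRFI1, LRIG1 and LRIG3 encode feedback inhibitors and relatives, RNF41, CBL, CBLB and CBLC encode ubiquitin ligases, and ADAM10, ADAM17 and RHBDF2 encode sheddases and a sheddase partner. All 10 were among the 35554 genes counted by RNA sequencing and among the 19711 genes that passed the filter on low counts. LNCaP is an established, androgen-responsive line from a metastasis of human prostate cancer. LNCaP-enzaR was derived from it by prolonged exposure to enzalutamide, an inhibitor of the androgen receptor, and was then maintained with less drug. It stands for a single resistant derivative, and the sources used here do not state whether it is a clone or whether enzalutamide was present in the flasks that were harvested. Replicates were separate flasks, per the labels, so that p-values measure the spread between flasks of each line.

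ErbB receptors are tyrosine kinases that dimerize at the cell surface when a ligand binds. Most of their ligands are made as membrane-anchored precursors, and metalloproteases called sheddases cut them free. Active receptors are held in check at several steps: inhibitors bind the kinase domain, leucine-rich repeat proteins bind the receptor at the membrane, and ubiquitin ligases mark it for internalization and degradation. In prostate cancer cells these receptors signal alongside the androgen receptor through PI3K/AKT and MAPK/ERK.

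Libraries held 77759122 to 98616465 counts. Mitochondrial transcripts took 6.719 to 7.061% of the counts in parental and 14.75 to 15.53% in LNCaP-enzaR libraries, and leaving them out changed no call among the 10 genes. LNCaP-enzaR replicate 1 stood apart, since the chi-square of its counts against the other 2 LNCaP-enzaR libraries was 28.2 and 35.6 per degree of freedom, against 5.56 to 9.06 for every other pair within a line. All 8 luminal prostate markers listed were detected in both lines, with summed counts of 369357 to 432049 in parental and 402235 to 451398 in LNCaP-enzaR libraries. Of the 3 basal markers, KRT5 and TP63 had at most 2 counts in any library, and KRT14 had 84 to 134 counts in parental and 43 to 67 in LNCaP-enzaR libraries. The 4 fibroblast markers in the table summed to 1235 to 1281 counts in parental and 676 to 717 in LNCaP-enzaR libraries. Most of these counts were from COL1A1, at 1145 to 1184 in parental and 358 to 414 in LNCaP-enzaR libraries. LUM went the other way, at 30 to 47 and 107 to 170 counts, as did PDGFRB, at 50 to 63 and 140 to 176. DCN had at most 1 count in parental and 20 in LNCaP-enzaR libraries. The 3 endothelial markers summed to 445 to 555 and 347 to 432 counts, nearly all from VWF, with PECAM1 and CDH5 at no more than 4. The 3 leukocyte markers together had 4 to 12 counts in parental and 3 to 15 in LNCaP-enzaR libraries. The part of these markers in the results was not tested.

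Of the 10 genes, 3 were lower in LNCaP-enzaR by at least 1.5-fold at an adjusted p of at most 0.05, the threshold used throughout, and none was higher. P-values are from the quasi-likelihood test of edgeR and were adjusted over all genes tested by the Benjamini-Hochberg method. In bulk RNA, fewer expressing cells and less RNA per cell cannot be told apart. The 3 genes were LRIG3, RNF41 and CBL, and DESeq2 called the same 3. At an unadjusted p under 0.05 with no fold limit, 1 gene (ADAM10) was higher and 6 were lower, where 34.8% of all genes were higher and 34.0% lower, 68.8% in either direction. Among all genes tested, 19.5% were lower and 23.3% higher past the same threshold, 42.7% in either direction. At an adjusted p of 0.05 without a fold limit, 7 of the 10 genes were called, which is 70.0% against 66.3% of all genes. By direction, 6 were lower (32.8% of all genes) and 1 was higher (33.5% of all genes). The same 7 genes were those with no overlap between the lines in CPM (counts per 1000000 of the scaled library), a property shared by 70.6% of all genes. The median log2 fold change was −0.42 over the 10 genes and 0.01 over all genes tested.

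**Figure D1:**
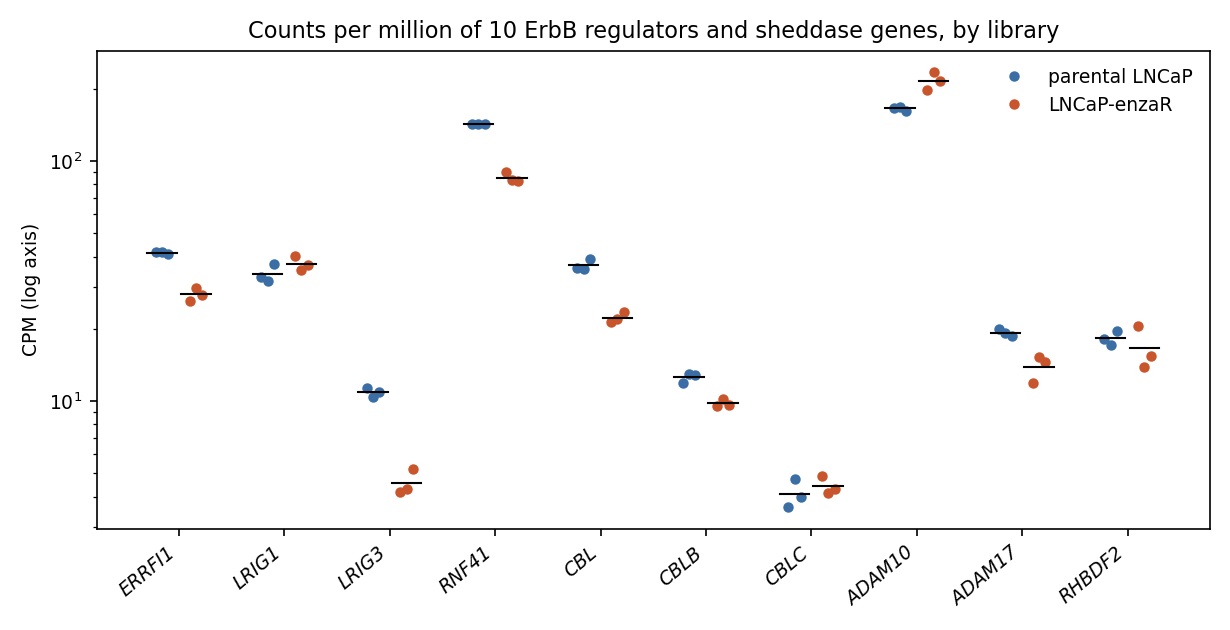
Level of each of the 10 genes in CPM (vertical log axis) in 3 parental and 3 LNCaP-enzaR libraries. Points are libraries and lines are group means, and the lines do not overlap for ERRFI1, LRIG3, RNF41, CBL, CBLB, ADAM10 and ADAM17.

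The DNA upstream of the genes is shown for LRIG3, RNF41 and ERRFI1, which had the lowest log2 fold changes among the 8 genes with an entry in the RefSeq promoter table (GRCh38.p14). Only the stretch of the 250 bases before the first listed start that lies outside every gene of the deposited table is printed. All 3 are read 5′ to 3′ on the minus strand, and capitals mark the GC box GGGCGG and the CCAAT box, on either strand.
LRIG3, chr12:58920505-58920638: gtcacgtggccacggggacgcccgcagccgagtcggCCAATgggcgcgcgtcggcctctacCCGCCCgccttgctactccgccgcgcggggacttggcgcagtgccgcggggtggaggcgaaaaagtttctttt
RNF41, chr12:56221934-56222014: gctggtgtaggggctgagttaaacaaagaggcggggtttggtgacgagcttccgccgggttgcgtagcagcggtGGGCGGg
ERRFI1, chr1:8026310-8026559: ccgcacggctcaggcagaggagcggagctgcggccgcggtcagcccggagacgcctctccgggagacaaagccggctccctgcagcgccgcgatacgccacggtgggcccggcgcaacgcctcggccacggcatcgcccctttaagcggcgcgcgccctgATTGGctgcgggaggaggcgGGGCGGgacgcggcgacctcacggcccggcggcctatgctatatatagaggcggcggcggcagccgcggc
The RNF41 stretch is the 81 bases that separate the start of RNF41 from the start of NABP2, a gene for a single-stranded DNA binding protein on the opposite strand. GGGCGG was found in the 250-base window of 8 of the 8 genes and in 42.6% of 35116 promoter windows of that length. CCAAT was found in the windows of ERRFI1, LRIG1 and LRIG3 and in 32.0% of all windows. AGAACA, the half-site bound by the androgen receptor, occurred in the RNF41 window, outside the bases printed, and in 12.4% of all windows. The AP-1 motif TGANTCA and the TATA box TATAAA were in none of the 8 windows, and in 6.57% and 10.7% of all windows. These are matches of letters in a window only.

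Among the feedback inhibitors and their relatives, LRIG3 had the lowest log2 fold change of the 10 genes. ERRFI1 was lower to a smaller extent, and LRIG1 did not pass the test. LRIG3 (ENSG00000139263.12, chromosome 12, 58872149 to 58920504, GRCh38) encodes a leucine-rich repeat membrane protein related to LRIG1. Whether it limits ErbB receptors in these cells was not tested. LRIG3 measured 11.3, 10.4 and 10.9 CPM in parental libraries and 4.18, 4.29 and 5.19 CPM in LNCaP-enzaR libraries. All LNCaP-enzaR libraries were below all parental ones. The mean fell from 10.9 ± 0.484 to 4.55 ± 0.553 CPM (SD, n = 3 each), which is −1.25 ± 0.104 (SE) in log2 units (adjusted p = 8.51e-08), or 2.38-fold. Its exons share no bases with those of another annotated gene.

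ERRFI1 (ENSG00000116285.13, chromosome 1, 8004404 to 8026309) encodes MIG6, which binds and inhibits the kinase domain of EGFR and its relatives and is itself induced by their signalling. Its level was 41.9, 41.9 and 40.9 CPM in parental libraries and 26.2, 29.7 and 27.7 CPM in LNCaP-enzaR libraries. The lines did not overlap, and the parental libraries lay close together. The mean went from 41.6 ± 0.605 to 27.9 ± 1.79 CPM, which is −0.58 ± 0.066 (SE) in log2 units (adjusted p = 2.72e-06). This difference of 1.49-fold was larger than the replicate spread and just short of the 1.5-fold limit. ERRFI1 was past that limit with scaling by library totals (−0.61), without parental replicate 3 (−0.59) and without LNCaP-enzaR replicate 2 (−0.62).

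LRIG1 (ENSG00000144749.14, chromosome 3, 66378797 to 66501263) encodes a membrane protein that binds ErbB receptors and promotes their degradation. It had 32.8, 31.8 and 37.3 CPM in parental libraries and 40.4, 35.1 and 36.9 CPM in LNCaP-enzaR libraries. The lines overlapped, with parental replicate 3 above LNCaP-enzaR replicates 2 and 3. Means were 34.0 ± 2.91 and 37.4 ± 2.70 CPM, which is 0.14 ± 0.077 (SE) in log2 units (adjusted p = 0.126). The adjusted p was at most 0.05 in 2 of 14 alternatives, 0.0146 with upper-quartile scaling and 0.0466 without parental replicate 3, at log2 fold changes of 0.24 and 0.21. Exons of SLC25A26 on the opposite strand cover 37.9% of the exonic bases of LRIG1. SLC25A26 was at 16.4 ± 0.883 and 17.6 ± 0.53 CPM, and because the counting is not stated to use strand, reads from both genes cannot be told apart there.

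Within a library, the ratio of LRIG1 to LRIG3 counts per kb of exon was 2.61 in parental cells and 6.88 in LNCaP-enzaR cells. On the log2 scale the ratio was 1.27, 1.36 and 1.51 in parental libraries and 3.01, 2.77 and 2.57 in LNCaP-enzaR libraries. Such a ratio does not depend on how libraries are scaled. The log2 ratio differed by 1.40 (1.38 ± 0.123 against 2.78 ± 0.222, SD) with no overlap, and reached the smallest p that 3 libraries against 3 allow (two-sided exact permutation test, p = 0.10, 0.10 after Benjamini-Hochberg adjustment over 5 pairs of related genes).

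Of the ubiquitin ligases, RNF41 and CBL were lower past the threshold, CBLB was lower by less than the fold limit, and CBLC did not pass the test. RNF41 (ENSG00000181852.18, chromosome 12, 56202179 to 56221933) encodes NRDP1, a ligase that targets HER3 and keeps its steady-state level down. It stood at 143 CPM in all 3 parental libraries and at 90.1, 83.2 and 83.0 CPM in LNCaP-enzaR libraries. The lines were far apart relative to their spread. The mean fell from 143 ± 0.22 to 85.4 ± 4.0 CPM (SD, n = 3 each), which is −0.74 ± 0.055 (SE) in log2 units (adjusted p = 2.57e-08), or 1.67-fold. RNF41 had the smallest p of the 10 genes.

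CBL (ENSG00000110395.7, chromosome 11, 119206298 to 119313926) encodes the ligase that ubiquitinates activated EGFR at the membrane. It measured 35.9, 35.6 and 39.0 CPM in parental libraries and 21.4, 21.9 and 23.5 CPM in LNCaP-enzaR libraries. No LNCaP-enzaR library came near the parental range. The mean fell from 36.8 ± 1.85 to 22.3 ± 1.07 CPM, which is −0.72 ± 0.069 (SE) in log2 units (adjusted p = 3.52e-07), or 1.65-fold. Exons of MCAM, at 0.501 CPM in parental and 0.272 CPM in LNCaP-enzaR cells, cover 4.34% of its exonic bases on the opposite strand.

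CBLB (ENSG00000114423.23, chromosome 3, 105655461 to 105869552), a close relative of CBL best known for restraining T cell activation, was at 11.9, 13.0 and 12.9 CPM in parental libraries. In LNCaP-enzaR libraries it was at 9.54, 10.2 and 9.67 CPM, below all parental values. The difference in log2 units was −0.36 ± 0.081 (SE, adjusted p = 0.00124), or 1.29-fold, under the fold limit. CBLC (ENSG00000142273.13, chromosome 19, 44777869 to 44800652), the shortest CBL family member and one found mainly in epithelia, was the least abundant of the 10 genes in CPM. It had 3.62, 4.75 and 3.97 CPM in parental and 4.88, 4.14 and 4.30 CPM in LNCaP-enzaR libraries, which overlapped. Its difference in log2 units was 0.11 ± 0.129 (SE, adjusted p = 0.474), and it stayed between 0.02 and 0.22 over 14 alternatives.

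Ratios within the CBL family differed between the lines. CBLC relative to CBL, in counts per kb within a library, was 0.807 in parental and 1.45 in LNCaP-enzaR cells. The log2 ratios were −0.45, −0.05 and −0.43 in parental libraries and 0.73, 0.46 and 0.41 in LNCaP-enzaR libraries, a difference of 0.84. CBLB relative to CBL was 0.327 and 0.421, with log2 ratios of −1.61 ± 0.083 and −1.25 ± 0.09 (SD), a difference of 0.36. Both ratios were higher in every LNCaP-enzaR library than in any parental library (exact permutation test, p = 0.10 each, 0.10 adjusted over 5 pairs).

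**Figure D2:**
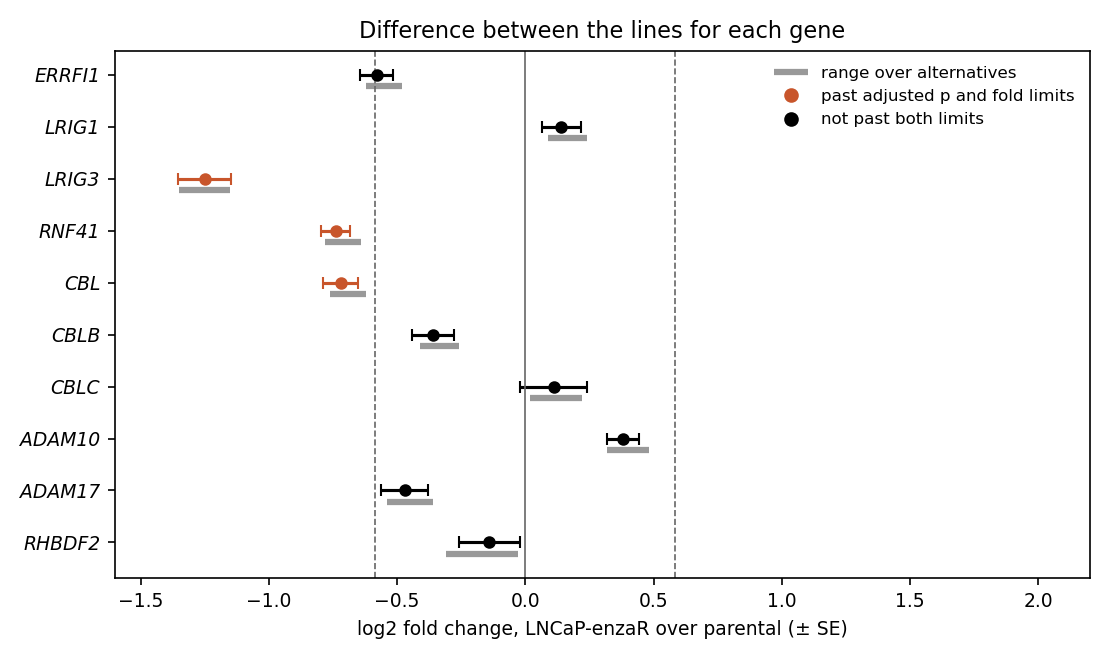
Log2 fold change of LNCaP-enzaR over parental cells for each of the 10 genes, with its SE as error bar, and the range over 14 alternatives as a grey bar. Dashed lines mark 1.5-fold in either direction, and LRIG3, RNF41 and CBL lie beyond it while ERRFI1 (−0.58) lies at the line.

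The sheddases moved in opposite directions, both by less than 1.5-fold. ADAM10 (ENSG00000137845.15, chromosome 15, 58588809 to 58749791) encodes the protease that releases EGF and betacellulin, and that also cleaves NOTCH receptors. It was at 167, 168 and 162 CPM in parental libraries and 198, 234 and 215 CPM in LNCaP-enzaR libraries. All LNCaP-enzaR values were higher. The mean rose from 166 ± 2.84 to 215 ± 18.0 CPM (SD, n = 3 each), which is 0.38 ± 0.062 (SE) in log2 units (adjusted p = 8.86e-05), or 1.30-fold. It was the one gene of the 10 that was higher at an adjusted p of 0.05, and it was under the fold limit.

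ADAM17 (ENSG00000151694.14, chromosome 2, 9488486 to 9556732) encodes TACE, which releases TGFA, AREG and HBEGF. It had 20.0, 19.2 and 18.6 CPM in parental libraries and 11.9, 15.3 and 14.5 CPM in LNCaP-enzaR libraries, with LNCaP-enzaR replicate 1 the lowest. The lines did not overlap. The difference in log2 units was −0.47 ± 0.091 (SE, adjusted p = 0.000394), or 1.38-fold, and −0.36 without LNCaP-enzaR replicate 1 (adjusted p = 5.74e-05). Exons on the opposite strand, among them those of IAH1, cover 11.67% of the exonic bases of ADAM17. IAH1 was itself higher in LNCaP-enzaR, at 40.9 ± 2.76 against 28.7 ± 1.44 CPM, and the part of its reads in the ADAM17 count was not tested.

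RHBDF2 (ENSG00000129667.13, chromosome 17, 76470891 to 76501790) encodes iRhom2, an inactive rhomboid that carries ADAM17 out of the endoplasmic reticulum and is needed for its maturation. It was at 18.1, 17.2 and 19.6 CPM in parental libraries and 20.5, 13.9 and 15.4 CPM in LNCaP-enzaR libraries. LNCaP-enzaR replicate 1 was above all parental libraries and the other 2 were below them. The difference in log2 units was −0.14 ± 0.118 (SE, adjusted p = 0.311) with all libraries and −0.31 (adjusted p = 0.000762) without LNCaP-enzaR replicate 1, still under the fold limit. RHBDF1, which encodes the related iRhom1, was at 28.5 ± 1.14 and 37.1 ± 3.28 CPM (log2 fold change 0.38, adjusted p = 0.00041).

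The ratio of ADAM17 to ADAM10 in counts per kb was 0.116 in parental and 0.0644 in LNCaP-enzaR cells. Its log2 values were −3.06, −3.12 and −3.12 in parental libraries and −4.05, −3.93 and −3.89 in LNCaP-enzaR libraries, a difference of −0.85. RHBDF2 relative to RHBDF1 was 0.447 and 0.308, with log2 ratios of −1.16 ± 0.096 and −1.70 ± 0.169 (SD), a difference of −0.54. Neither ratio overlapped between the lines (exact permutation test, p = 0.10 each, 0.10 adjusted over 5 pairs).

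Levels of different genes were compared per kb of annotated exon, since longer transcripts collect more reads. The length used is the union of all annotated exons, 1.613 kb for CBLC to 15.979 kb for ADAM10, which can exceed that of the transcripts in use. In parental cells RNF41 had the highest level at 21.9 CPM per kb, followed by ADAM10 at 10.4, ERRFI1 at 9.95, LRIG1 at 4.82 and CBL at 3.14. RHBDF2 at 2.59 and CBLC at 2.55 overlapped, and LRIG3 at 1.85, ADAM17 at 1.21 and CBLB at 1.03 came last. In LNCaP-enzaR cells ADAM10 at 13.5 and RNF41 at 13.1 CPM per kb overlapped at the top, before ERRFI1 at 6.67 and LRIG1 at 5.32. CBLC at 2.75, RHBDF2 at 2.35 and CBL at 1.90 followed, where neighbours in this order overlapped. ADAM17 at 0.871, CBLB at 0.799 and LRIG3 at 0.775 each overlapped with the next.

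**Figure D3:**
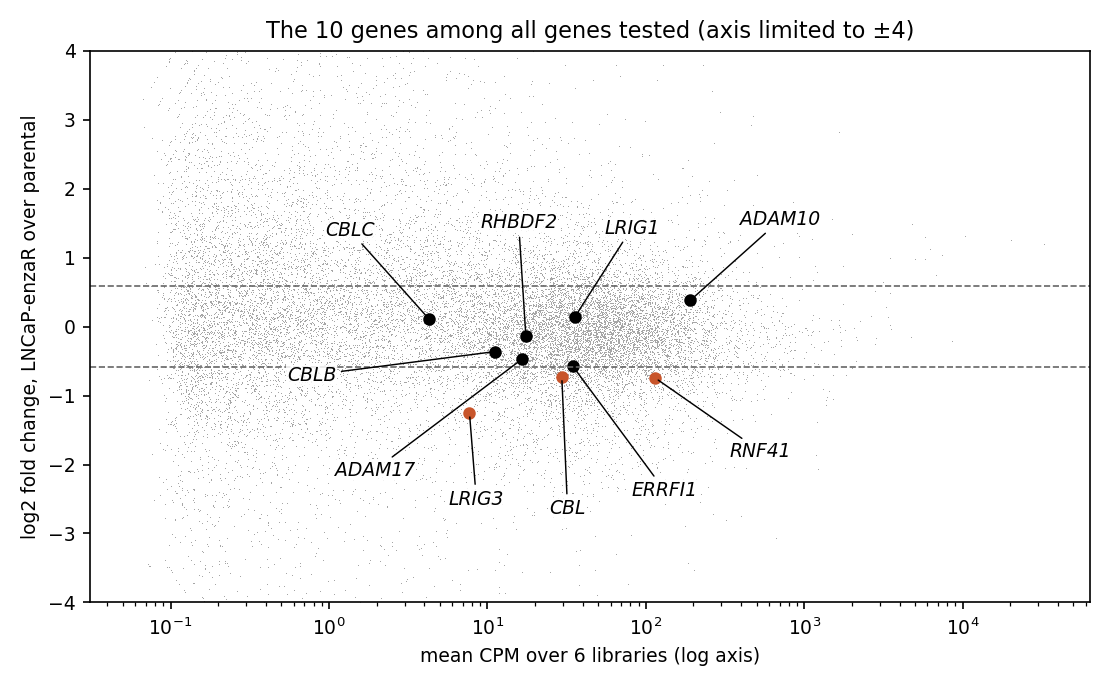
Log2 fold change of LNCaP-enzaR over parental cells (vertical axis, limited to ±4, which leaves out 670 genes) against mean CPM over 6 libraries (horizontal log axis) for all genes tested in grey and the 10 genes as labelled points. Dashed lines mark 1.5-fold, and the 10 genes sit between −1.25 and 0.38, with the 3 genes past the threshold in orange.

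LRIG1, RNF41 and CBL were then each set beside a receptor that they are known to act on. LRIG1 binds ErbB receptors in general, but its ratio was taken to ERBB2 alone. Against 0.14 for LRIG1, log2 fold changes were 1.49 for ERBB2, 1.63 for ERBB4, −0.64 for EGFR and −0.56 for ERBB3. ERBB2, which encodes HER2, was at 112 ± 5.58 CPM in parental and 315 ± 10.7 CPM in LNCaP-enzaR cells (SD, n = 3 each), while LRIG1 differed by 1.10-fold. LRIG1 counts per kb were 0.442 of those of ERBB2 in parental and 0.174 in LNCaP-enzaR cells. Exons on the opposite strand cover 37.9% of the exonic bases of LRIG1 and 6.93% of those of ERBB2, and their part in this ratio was not tested. The log2 ratio was −1.14, −1.31 and −1.09 in parental libraries and −2.47, −2.59 and −2.51 in LNCaP-enzaR libraries, a difference of −1.35 with no overlap (two-sided exact permutation test, p = 0.10, 0.15 adjusted over 3 pairs). RNF41 and ERBB3, the gene of HER3, lie on the same chromosome and had log2 fold changes of −0.74 and −0.56. Their log2 ratio was 0.96, 0.87 and 0.93 in parental libraries and 0.78, 0.71 and 0.72 in LNCaP-enzaR libraries, a difference of −0.18 without overlap (p = 0.10 by the exact permutation test, 0.15 adjusted). CBL and EGFR had log2 fold changes of −0.72 and −0.64. The CBL to EGFR ratio overlapped between the lines, at a log2 value of −0.90 ± 0.09 and −0.99 ± 0.077 (difference −0.09, exact permutation p = 0.40, 0.40 adjusted). These are ratios of RNA and give no ratio of proteins.

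**Figure D4:**
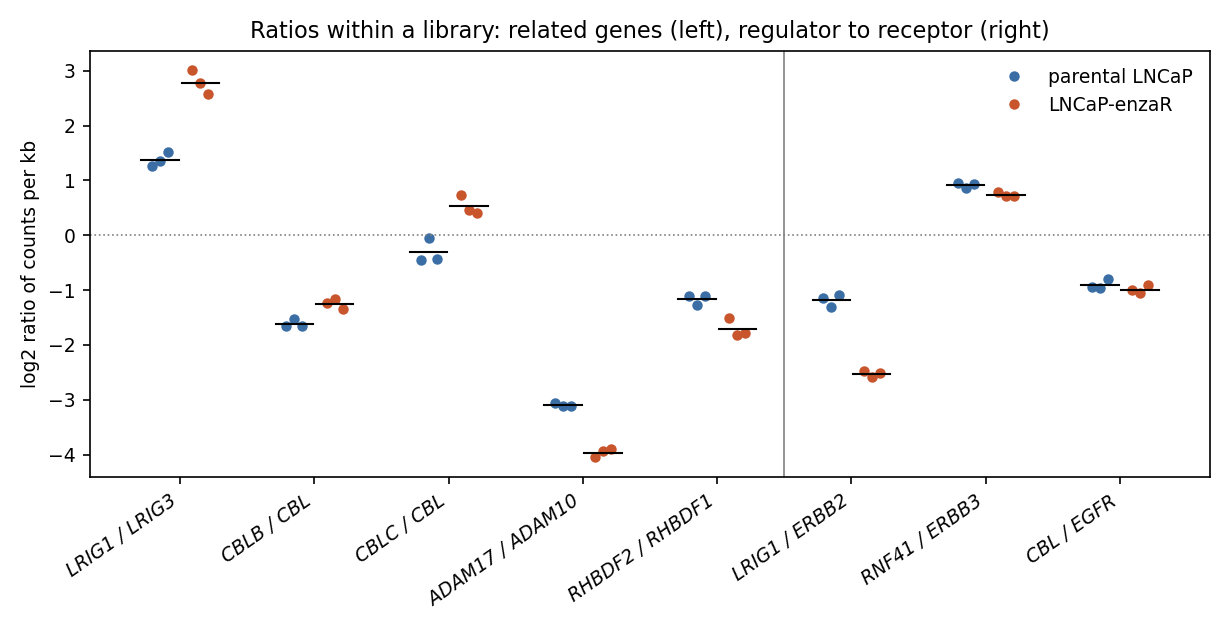
Log2 ratio of counts per kb within each library (vertical axis) for 5 pairs of related genes and 3 pairs of regulator and receptor, with points for libraries and lines for group means. Parental and LNCaP-enzaR libraries overlap for CBL to EGFR and for no other pair, and the ratio of LRIG1 to LRIG3 differs most, by 1.40.

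Other genes of the pathway were described from lists written for this comparison. Among all genes tested, 23.3% were higher and 19.5% lower past the threshold, 42.7% in either direction. Of 4 ErbB receptors tested, 2 were higher past the threshold (ERBB2 and ERBB4, the latter at 0.111 CPM in parental and 0.347 CPM in LNCaP-enzaR cells) and 1 was lower (EGFR). The ERBB4 call was lost without LNCaP-enzaR replicate 1 (log2 fold change 1.32, adjusted p = 0.0718), and upper-quartile scaling left EGFR under 1.5-fold (−0.54). Of 11 ligand genes, 7 were tested and 6 were higher, with a median log2 fold change of 2.71. In parental libraries AREG had 3 to 9 and BTC 2 to 11 counts, against 56 to 73 and 38 to 68 in LNCaP-enzaR libraries. Genes with so few parental counts pass the filter on low counts only when higher in LNCaP-enzaR, so the ligand count and median depend partly on that filter. ERBB4 had 14, 6 and 9 counts in parental and 42, 24 and 28 in LNCaP-enzaR libraries. It too passed that filter through its LNCaP-enzaR counts, so the receptor count also depends partly on the filter. TGFA and HBEGF, both released by ADAM17, rose by log2 fold changes of 3.10 and 2.60. NRG3, a ligand of HER4, rose by 2.71, from 0.307 to 2.03 CPM. ADAM17 itself had a log2 fold change of −0.47.

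Among 21 further genes of receptor ubiquitination, adaptors and phosphatases, 20 were tested, with a median of −0.03. Of these, 4 were higher (23.3% of all genes), 3 were lower (19.5% of all genes) and 13 were not past the threshold. The 3 smallest p-values were those of phosphatases. PTPRJ, a receptor-type phosphatase that dephosphorylates EGFR, fell from 46.8 ± 1.72 to 10.7 ± 1.07 CPM (SD, n = 3 each), which is −2.13 ± 0.081 (SE) in log2 units (adjusted p = 1.88e-11). PTPN12, a cytoplasmic phosphatase with substrates among the ErbB receptors, fell from 41.0 ± 0.988 to 15.1 ± 1.45 CPM (−1.44, adjusted p = 6.70e-10). PTPRK, another receptor-type phosphatase reported to act on EGFR, rose from 6.39 ± 0.977 to 25.3 ± 2.06 CPM (1.98, adjusted p = 8.16e-10). The remaining 4 calls, named after their values were seen, were CD2AP (−0.71), an adaptor that binds CBL, the ubiquitin ligases NEDD4 (1.32) and STUB1 (0.62), and UBASH3B (1.16), which was at 0.18 CPM in parental and 0.399 CPM in LNCaP-enzaR cells. STUB1 was under 1.5-fold without parental replicate 1 (0.57) and without LNCaP-enzaR replicate 1 (0.53), and 42.49% of its exonic bases lie in exons of JMJD8 on the opposite strand. UBASH3B had an adjusted p of 0.0641 to 0.115 when parental replicate 1 or 2 or LNCaP-enzaR replicate 2 or 3 was left out. With 15, 9 and 22 counts in parental and 29, 35 and 46 in LNCaP-enzaR libraries, it passed the filter on low counts through the latter.

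Of 15 genes for sheddase cofactors and inhibitors, 14 were tested, with a median of 0.09. Of these, 3 were higher (23.3% of all genes) and 1 was lower (19.5% of all genes). TIMP3, the tissue inhibitor of metalloproteases that blocks ADAM17, had 7, 3 and 3 counts in parental libraries and 4392, 4670 and 4642 counts in LNCaP-enzaR libraries. TIMP3 passed the filter on low counts only through the LNCaP-enzaR libraries. TIMP2, another inhibitor of this family, with 9.52% of its exonic bases in exons of other genes, rose from 21.4 ± 0.934 to 65.6 ± 2.86 CPM (log2 fold change 1.62, adjusted p = 3.63e-11). FURIN, a proprotein convertase that removes the inhibitory prodomain of ADAM proteases, fell from 86.3 ± 3.79 to 53.2 ± 5.47 CPM (−0.70, adjusted p = 1.05e-06). The third gene that was higher, TSPAN10 (1.11), encodes a tetraspanin that binds ADAM10, and was named after its values were seen.

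Of 10 other sheddase genes, 7 were tested, with a median of 0.16. Of these, 3 were higher (23.3% of all genes) and 1 was lower (19.5% of all genes). ADAM12, which can release HBEGF, rose from 0.457 ± 0.147 to 7.57 ± 0.414 CPM (log2 fold change 4.06, adjusted p = 1.06e-10). BACE2, an aspartyl protease, rose from 0.832 ± 0.234 to 10.2 ± 0.526 CPM (3.60, adjusted p = 7.50e-11). ADAM15, whose exons share 4.65% of their bases with DCST1, rose from 264 ± 5.79 to 476 ± 48.0 CPM (0.85, adjusted p = 4.46e-08). ADAM9, named after its values were seen, was lower, at 347 ± 8.67 and 224 ± 16.1 CPM (−0.63, adjusted p = 3.14e-07). It was under 1.5-fold with upper-quartile scaling (−0.53) and without LNCaP-enzaR replicate 1 (−0.57).

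**Figure D5:**
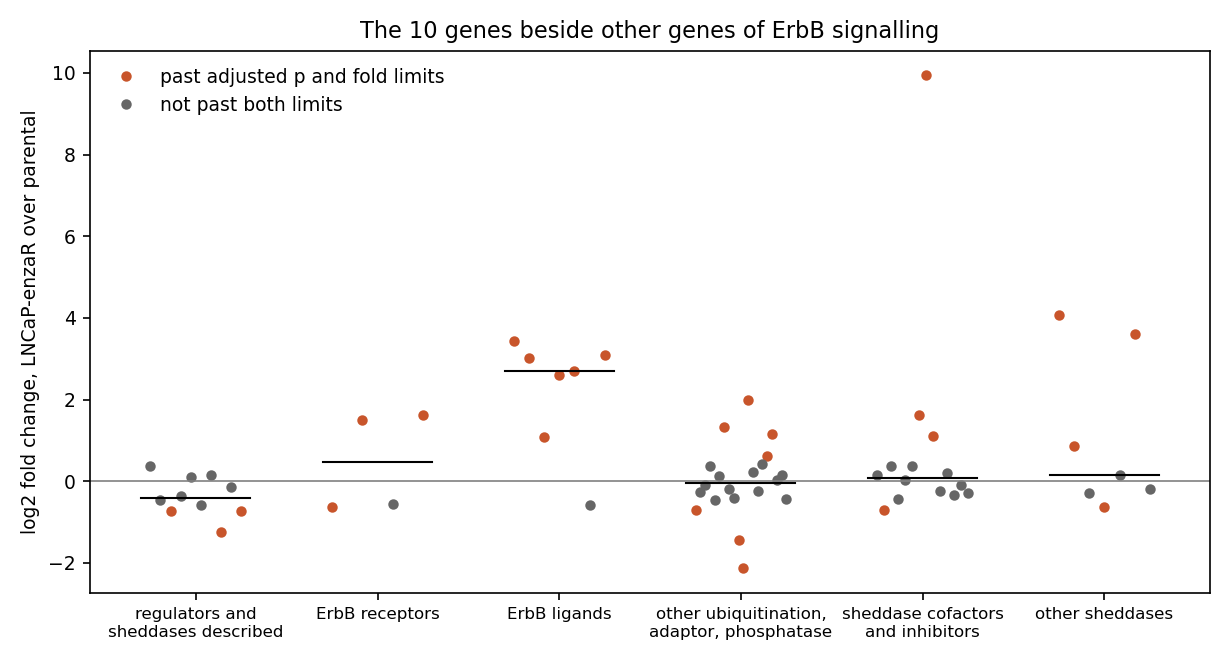
Log2 fold change of LNCaP-enzaR over parental cells (vertical axis) for each tested gene of the 10 described and of 5 lists of ErbB pathway genes, with points for genes and lines for list medians. Medians are −0.42 for the 10 genes, 0.46 for receptors, 2.71 for ligands, −0.03 for other ubiquitination, adaptor and phosphatase genes, 0.09 for sheddase cofactors and inhibitors and 0.16 for other sheddases. No receptor lies near the receptor median, as EGFR is at −0.64, ERBB3 at −0.56, ERBB2 at 1.49 and ERBB4 at 1.63. The receptor and ligand medians depend partly on the filter on low counts, which ERBB4, AREG and BTC passed through their LNCaP-enzaR counts.

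Over the 6 libraries, protein-coding genes whose log2 CPM was most like that of RNF41 included CDK2AP2 (Pearson r 0.9999) and CREB3L4 (0.9997), among 10182 genes with a mean of at least 5 CPM. Since the libraries form 2 lines, such a likeness follows mainly the difference between the lines, and 981 genes had an r above 0.99 with RNF41.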

How the data were processed

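Per the labels, polyadenylated RNA of 3 flasks per line was sequenced as paired-end reads. The authors trimmed reads with Cutadapt, aligned them to GRCh38 with STAR and counted reads per GENCODE gene with featureCounts. These raw counts, without normalization, make up the deposited table. Strand setting and multimapping are not stated, so overlapping genes are uncertain. GENCODE v44 gave exon lengths and overlaps, and all 10 genes had the same coordinates there.

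Lines were compared with edgeR 4.0.16 under R 4.3.3 (filterByExpr, TMM, robust quasi-likelihood F-test without covariates), which kept 19711 genes with 99.96% of the counts. P-values were Benjamini-Hochberg adjusted over those genes, and the threshold was an adjusted p of 0.05 and a fold of 1.5. The methods of the study name DESeq2, run here (version 1.42.0) as an alternative. CPM are counts per 1000000 of the TMM-scaled library, where 3 counts equal 0.0302 to 0.0382 CPM, a limit for counting error only. On counts simulated from these libraries for 18361 genes, the test recovered 99.5% of 200 changed genes and called 3 unchanged ones. Recovery with as large a share of genes differing as in the deposited counts, where 42.7% passed the threshold, was not tested. Recovery of the differences measured for the 10 genes was not tested either. Promoter windows came from RefSeq (GRCh38.p14), which gave an entry for 8 of the 10 genes.

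Named were the 10 genes, the receptors, the 3 genes with the smallest p past the threshold in each list, and the 3 genes most like the member with the smallest p, of which 1 is not reported here. The genes, lists and rule were chosen with earlier results of these data known. Alternatives were DESeq2, 3 other scalings, no filter or 10 counts in every library, a replicate block, each library left out, other limits and no mitochondrial genes.

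Replicate numbers are not stated to pair the lines. The deviations from the group mean correlated between libraries of the same number at −0.0652, −0.00041 and −0.0507. With 3 libraries a line, such values do not settle whether same-numbered libraries were handled together.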

Additional observations from a re-analysis of the deposited data

How the results depend on the processing

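The count of genes past the threshold was 8425, and it was 8321 with DESeq2, of which 8279 were shared. Without a minimum fold, 13074 genes and 7 of the 10 were called, and at a fold of at least 2, 5561 genes and 1 of the 10 (LRIG3), because these limits are looser and stricter by construction. Every other alternative left LRIG3, RNF41 and CBL past the threshold, joined by ERRFI1 in 3 of them. Each of the 10 log2 fold changes kept its sign under all 14 alternatives. Upper-quartile scaling raised the median log2 fold change of all genes by 0.10, and gave RNF41 −0.64 and CBL −0.62. A fit with a replicate block put 8212 genes and 3 of the 10 past the threshold and changed no call among the 10. As same-numbered libraries are not known to share more than a number, the block is not taken as a paired analysis. All 8 ratios kept their direction. With 3 libraries a line, no ratio could reach an exact p under 0.10.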

Other observations

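Genes near the 10 genes were examined after the values above were seen. Past the threshold, 19.5% of all genes tested were lower in LNCaP-enzaR and 23.3% higher. Within 250 kb of CBL, 26 other genes were tested, of which 11 passed the threshold as lower in LNCaP-enzaR and 3 as higher, with a median log2 fold change of −0.38. They included H2AX (−1.96), a histone variant that marks DNA breaks, DPAGT1 (−1.43), which starts N-linked glycosylation, RNF26 (−1.25), a ubiquitin ligase of the endoplasmic reticulum, and HYOU1 (−1.23), a chaperone there. UPK2 (3.87), at 0.409 CPM on average, was higher. The genes named here follow no rule, and SLC37A4 (−1.34) was among the other lower ones. Genes of a neighbourhood are not independent, and no test of the region was made.

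Within 250 kb of RNF41, 33 genes were tested, of which 6 were higher and 5 lower, with a median of −0.10. NABP2, whose start is separated from that of RNF41 by 81 bases, had a log2 fold change of −0.64 (edgeR adjusted p = 5.99e-07). RNF41 and ERBB3 are 98.7 kb apart, and of the 8 tested genes between them 1 was higher (MYL6, 0.94), 1 was lower (PA2G4, −0.68) and the median was −0.09. ALCAM, a cell adhesion gene and the only neighbour of CBLB that was tested, was at −4.12.

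LNCaP-enzaR replicate 1 had the highest level of its line for LRIG1, RNF41, CBLC and RHBDF2 and the lowest for ERRFI1, LRIG3, CBL, CBLB, ADAM10 and ADAM17.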
